A study of Bos taurus with 6 samples.

Results

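The genes of 8 secreted proteins of the Sertoli cell were followed in immature and mature cattle testes: transferrin (TF), clusterin (CLU), lipocalin-type prostaglandin D2 synthase (PTGDS), osteonectin (SPARC), the protein C inhibitor (SERPINA5), cystatin C (CST3), sex hormone-binding globulin (SHBG) and prosaposin (PSAP). They were chosen by name, as the rows of the gene table that carry these symbols, and each symbol had 1 row, so that there were 8 genes of the 47249 in the table. Testes came from 3 immature calves aged 3 months and 3 andrologically mature bulls aged 3 years of the Wandong breed. The study describes the animals as physically healthy and names no treatment. There was 1 library per animal, made from slices of the middle of the testis. Total RNA was depleted of ribosomal RNA and made into strand-specific libraries, which therefore hold RNA of every cell type in the slice and not of isolated Sertoli cells. The deposited tables give FPKM, a fragment number scaled to transcript length and to library size, for each gene and transcript, with no counts, so the depth behind a value is unknown. Animals of each group keep the numbers of the sample names, as in calf 1 or bull 3.

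Sertoli cells are the somatic cells of the seminiferous tubule that hold and feed the germ cells. Because their tight junctions shut meiotic and later germ cells off from the blood, these germ cells depend on carriers, protease inhibitors and other proteins that Sertoli cells release. In the immature testis Sertoli cells still divide and make anti-Müllerian hormone (AMH), and around puberty they stop dividing, form the barrier and secrete tubular fluid. Most of the 8 proteins are also made elsewhere in the body, several of them in the brain.

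The label was checked against 12 genes that define Sertoli cells. Their summed FPKM was 1870 in calf 1, 1575 in calf 2 and between 217 and 241 in the bulls, and every one of them was above 0 in those 5 libraries. In the library labelled calf 3 the sum was 83.1, WT1, GATA4, FSHR and NR5A1 were listed at 0, and 10 of the 12 lay below both other calves. Most of the sum in calf 3 was SOX8, with an FPKM of 62.5. SOX8 had 1.88 in calf 1, 0.985 in calf 2 and 0.208 to 0.582 in the bulls. The inhibin subunit INHA had an FPKM of 955 in calf 1, 865 in calf 2, 0.766 in calf 3 and 82.1 to 113 in the bulls, and AMH had 736, 483, 0.340 and 4.52 to 5.19. INHA and AMH made most of the sum in calf 1 and calf 2. Not every marker was lower in bulls. INHBB had 1.35, 3.42 and 4.72 in the calves and 6.51 to 7.30 in the bulls. DMRT1 had 44.9, 68.9 and 0.0938 in the calves and 72.2 to 80.2 in the bulls. A list of 6 oligodendrocyte genes summed to an FPKM of 13017 in calf 3 and to at most 29.4 in each other library, and 6 of 6 were highest in calf 3. Genes of astrocytes (5, summed FPKM 1787 against at most 8.07) and of neurons (5, 607 against at most 15.1) were each highest there too. Of 4 genes of choroid plexus and meninges 2 were highest in calf 3, and TTR made 47.1 of their summed FPKM of 50.5. The part of such cells in the values of calf 3 was not tested. The markers of calf 3 go against its label, and the results of the 8 genes are given with and without it. Statements below on all calves or every calf include this library. The sum of FPKM over all genes, which the authors did not rescale, lay between 587066 and 1098720, and 27164 to 38975 genes were above 0.

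Levels of the 8 genes spanned more than 2 orders of magnitude on the FPKM scale. Together they summed to an FPKM of 5038 in calf 1 and 5196 in calf 2, or 0.473% of all FPKM in each. The sums were 989, 1182 and 1204 in the bulls, or 0.127%, 0.154% and 0.164%, and 2203 in calf 3, or 0.375%. Among the 27607 genes with an Ensembl identifier, CST3 ranked 30th and 31st and SPARC 33rd and 55th in calf 1 and calf 2, counted from the highest FPKM. In the bulls CST3 ranked between 142 and 209, CLU between 193 and 198, and SPARC between 474 and 647. SHBG ranked between 7809 and 12741 in the 6 libraries and was the lowest of the 8 in every library except calf 3, where SERPINA5 was lower.

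**Figure D1:**
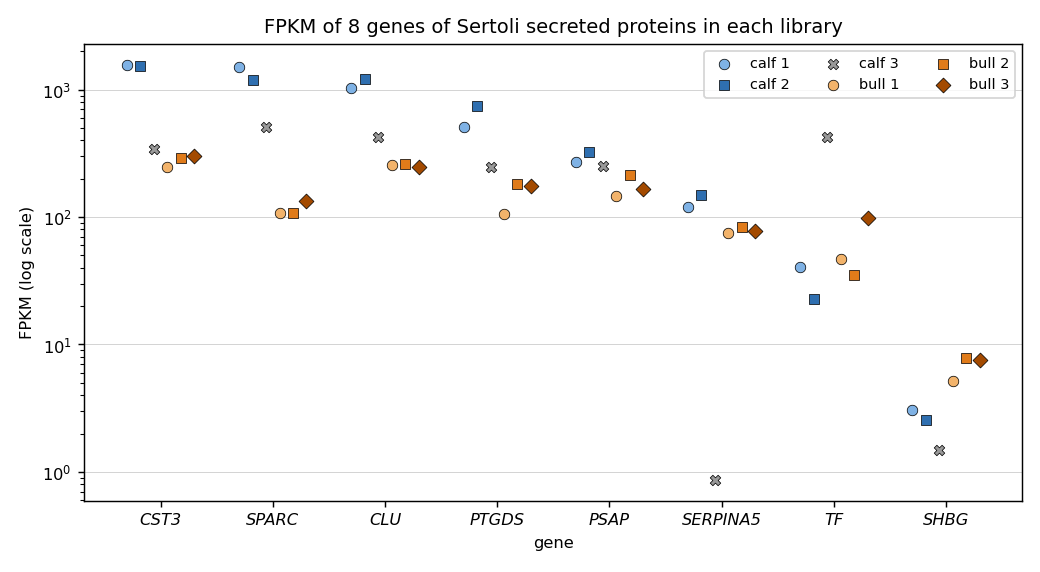
FPKM of the 8 genes (log scale) in each library, with 1 symbol per animal; calf 3 is drawn as a grey cross. SPARC, CST3, CLU and PTGDS were higher in all calves than in all bulls, and calf 3 stands out at 426 for TF and 0.864 for SERPINA5.

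Bulls were compared with calves on the log2(FPKM + 1) scale with limma across all 18115 genes with 3 or more libraries at an FPKM of 1 or higher. Fold changes are bull minus calf, and a call required a Benjamini-Hochberg adjusted p below 0.05 together with a log2 fold change of 1 or more in either direction. All 8 genes passed the filter, and 4 of them were called with all 6 libraries, 3 lower and 1 higher in bulls. Of all genes tested, 45.3% were called, 9.61% lower and 35.7% higher. Without calf 3, 5 of the 8 were called, 4 lower and 1 higher, while 51.5% of all genes were called, 13.6% lower and 37.9% higher. The FPKM of the groups did not overlap for 6 of the 8 genes with all libraries and for 7 without calf 3, against 67.4% and 84.4% of all genes. The median log2 fold change of the 8 was -1.14 with all libraries and -1.41 without calf 3, beside medians over all genes of 0.43 and 0.43. The number of called genes was thus near the share among all genes in both fits, and most calls among the 8 were lower in bulls. The direction over all genes depends on scaling: 78.8% of called genes were higher in bulls as fitted, and 45.8% with quantile normalization. Whether the 8 differ from other genes in direction was not tested.

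**Figure D2:**
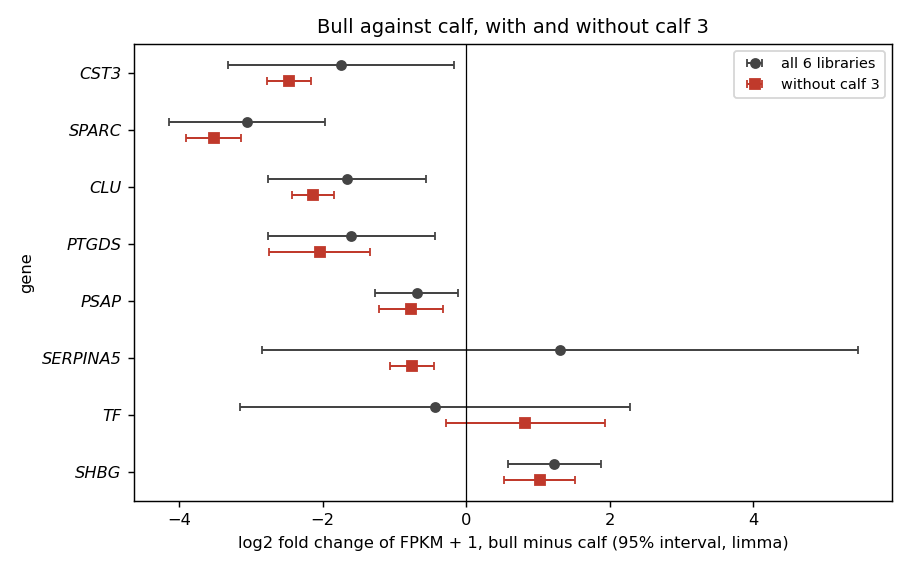
Log2 fold change of FPKM + 1 (bull minus calf, x axis) of the 8 genes with its 95% interval from limma, with all 6 libraries (grey circles) and without calf 3 (red squares). The intervals of TF and SERPINA5 cross 0 with all libraries, and without calf 3 that of TF still does.

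Mature testes hold many more germ cells than immature ones, and in these libraries 8 spermatid genes summed to an FPKM of at most 2.83 in each calf and of 13540 to 15372 in the bulls. In bulk tissue, fewer cells of a type and less RNA per cell cannot be told apart, and the part of germ cell RNA in the differences below was not tested.

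The first role considered was transport. CLU, an extracellular chaperone and lipid carrier abundant in rete testis fluid, lies on chromosome 8 at 11176838 to 11194518 (ENSBTAG00000005574), a position that, like those of the other genes, is the table's own and follows the cattle assembly ARS-UCD. Its FPKM was 1025, 1222 and 423 in calves 1, 2 and 3 and 255, 260.2 and 247 in bulls 1, 2 and 3. All calves exceeded all bulls, whose spread was narrow (254 ± 6.77, SD, n = 3), while calf 3 lay between the other calves and the bulls. CLU was lower in bulls by a log2 fold change of -1.67 (95% interval -2.77 to -0.57, limma adjusted p = 0.0209), and without calf 3 by -2.14 (-2.43 to -1.84, limma adjusted p = 1.91e-05), a 4.42-fold higher mean in calf 1 and calf 2. This call with calf 3 in the fit was lost when any 1 of the other 5 libraries was left out, with log2 fold changes of -1.69 to -1.37 and adjusted p of 0.0528 to 0.0755.

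PTGDS, a lipocalin that makes prostaglandin D2 and carries retinoids and other lipids, is encoded on chromosome 11 at 106021670 to 106024967 (ENSBTAG00000015074). Its FPKM was 514, 746 and 245 in the calves and 105, 181 and 175 in the bulls. Every calf lay above every bull, with calf 3 nearest to them. The log2 fold change was -1.60 (95% interval -2.77 to -0.44, limma adjusted p = 0.0297), and -2.05 without calf 3 (-2.74 to -1.35, limma adjusted p = 0.000873). As for CLU, leaving out any 1 of the other 5 libraries took the call away (-1.74 to -1.24, adjusted p 0.0683 to 0.111). Of the 7 other genes of the prostaglandin D2 pathway, 2 passed the filter and 1 was called in both fits: HPGDS, the haematopoietic synthase of the same prostaglandin, with an FPKM of 0.0348, 0 and 0.0867 in the calves and 1.09, 1.01 and 2.06 in the bulls. HPGDS passed the filter through the bulls alone, so that it had to be higher there, and its log2 fold change was under the limit of 1 without bull 3 (0.98) and with quantile normalization (0.07).

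TF, the carrier that brings iron to germ cells behind the barrier, lies on chromosome 1 at 135572697 to 135618070 (ENSBTAG00000007273). Its FPKM was 40.6, 22.9 and 426 in the calves and 47.3, 35.2 and 97.6 in the bulls. Calf 3 was 13.4-fold above the mean of calf 1 and calf 2 and above every bull, bull 2 lay below calf 1, and the groups overlapped with and without calf 3. TF is also made by oligodendrocytes, and the markers of these cells were at their highest in calf 3, where MBP had an FPKM of 3861. Their part in the value of calf 3 was not tested. TF was not called: the log2 fold change was -0.43 (95% interval -3.15 to 2.28, limma adjusted p = 0.760) with all libraries and 0.82 (-0.29 to 1.93, limma adjusted p = 0.145) without calf 3. Both intervals held differences of either sign. TF is a liver product as well, and a list of 5 liver genes summed to an FPKM of 727, 777 and 87.2 in the calves and of 167 to 185 in the bulls, most of it APOA1, while albumin (ALB) was at most 0.527 in any library.

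Iron handling around TF was read from 8 further genes, of which 7 passed the filter. With all libraries 1 was called, FTH1, the ferritin heavy chain, lower in bulls (log2 fold change -1.13, limma adjusted p = 0.0331), and without calf 3 another 1, HFE, a regulator of iron uptake (-1.37, limma adjusted p = 0.000270). Both were named after their values had been seen. FTH1 was under the fold limit without calf 3 (-0.82), and its call was lost in 10 of 15 alternatives. The FPKM of FTH1 was 1059 in calf 3, 528 and 579 in the other calves and 296 to 339 in the bulls. TFRC, the receptor that takes up iron-loaded transferrin, had an FPKM of 9.57, 7.79 and 39.5 in the calves and 9.16, 9.66 and 10.4 in the bulls, so that the receptor, like TF, was highest in calf 3.

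SHBG, which binds testosterone and in the testis is known as androgen-binding protein, was the 1 member called higher in bulls. Its locus is on chromosome 19 at 27346147 to 27365420 (ENSBTAG00000004226). The FPKM of SHBG was 3.03, 2.56 and 1.498 in the calves and 5.13, 7.78 and 7.50 in the bulls. No calf reached a bull. The log2 fold change was 1.22 (95% interval 0.58 to 1.87, limma adjusted p = 0.00876), and 1.02 without calf 3 (0.53 to 1.52, limma adjusted p = 0.00401), a 2.43-fold higher mean in bulls than in calf 1 and calf 2. At levels this low, the 1 added to each FPKM makes the fitted fold change smaller than that of the means. The fold change stayed above 0 but under the limit of 1 with quantile normalization (0.65), and, in settings added after the data had been seen, with quantile normalization without calf 3 (0.50) and with median-ratio scaling without calf 3 (0.74).

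The transcript table showed what the gene value of SHBG was made of. It lists 7 transcripts under this gene: SHBG-201, the annotated Ensembl transcript, and 6 assembled from the reads and named as antisense, SHBG-AS1 to SHBG-AS6. The FPKM of SHBG-201 was 3.02, 2.54 and 0.633 in the calves and 2.64, 2.39 and 2.21 in the bulls. Calf 1 lay above all bulls, calf 2 among them and calf 3 below them. SHBG-201 was not called, with a log2 fold change of 0.26 (95% interval -0.65 to 1.16, limma adjusted p = 0.590) and of -0.15 without calf 3 (-0.55 to 0.26, limma adjusted p = 0.449). The antisense transcripts together had an FPKM of 0.0172, 0.0164 and 0.864 in the calves and of 2.49, 5.39 and 5.29 in the bulls. They made up 48.6%, 69.3% and 70.5% of the gene value in the bulls and 57.7% in calf 3, against 0.567% in calf 1 and 0.642% in calf 2. The higher gene value of bulls therefore lay in transcripts named antisense, and no difference was detected in the annotated transcript. The tables have no strand column, and whether strand was used in counting is not given in the sources used here, so reads of SHBG and of its antisense partners may not be fully told apart.

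**Figure D3:**
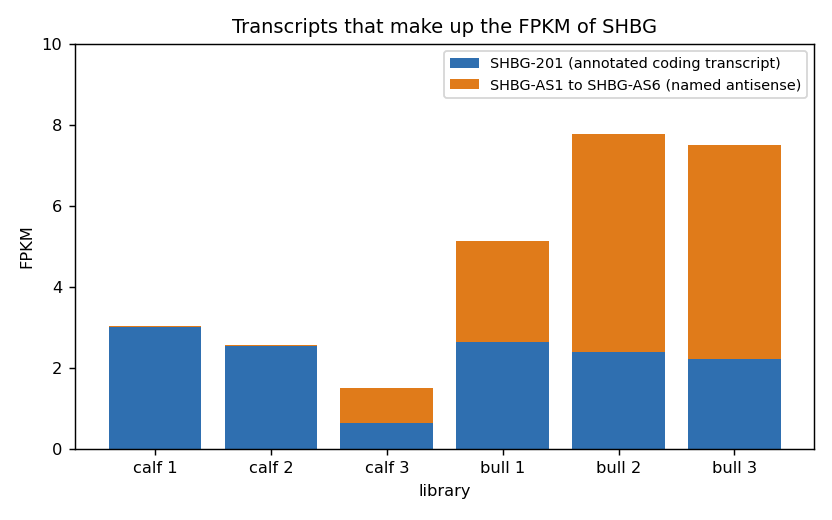
FPKM of SHBG per library (bar height, from 0), split into the annotated transcript SHBG-201 (blue) and the sum of the 6 transcripts named antisense (orange). The blue part is 2.21 to 3.02 in calf 1, calf 2 and the bulls and 0.633 in calf 3, while the orange part is at most 0.864 in calves and at least 2.49 in bulls.

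Among these, SHBG-AS4 was listed at 0 in the 3 calves and had an FPKM of 1.33, 3.098 and 2.09 in the bulls, and it was the 1 antisense transcript that passed the filter. It passed the filter through the bulls alone, so that it had to be higher there. SHBG-AS4 was called higher in bulls, as were 34.8% of the 23212 transcripts tested, out of 44.2% called in either direction. Without calf 3 it was called as well, beside 36.1% of all transcripts called higher and 49.2% called in all. With quantile normalization it was under the fold limit. The 5 shorter antisense transcripts begin at 27349796 and end by 27351604, and so overlap an end of SHBG-201, which spans 27346147 to 27350672. SHBG-AS6 reaches to 27365420, into the neighbouring gene ATP1B2, a sodium pump subunit of glia and neurons. In calf 3, SHBG-AS6 alone made the antisense sum, and ATP1B2 had an FPKM of 57.9, against 0.736 to 3.68 in the other libraries. The RefSeq annotation of the ARS-UCD assembly also has a long non-coding RNA, LOC132343039, at this locus. Of 7 genes of the androgen and FSH pathway, 5 passed the filter. None was called by limma with all libraries (0 at an unadjusted p below 0.05), and without calf 3 SRD5A1, a steroid 5-alpha-reductase, was called higher (1.52) and FSHR, the FSH receptor, lower (-2.06), both named after their values had been seen.

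Next came the matrix protein. SPARC, a collagen-binding glycoprotein that Sertoli and Leydig cells, fibroblasts and endothelium release, showed the largest difference of the 8 genes. It lies on chromosome 7 at 62874446 to 62897221 (ENSBTAG00000014835). Its FPKM was 1495, 1198 and 511 in the calves and 107, 108 and 133 in the bulls. The lowest calf was calf 3, whose markers go against its label, and it was above the highest bull. The log2 fold change was -3.06 (95% interval -4.15 to -1.97, limma adjusted p = 0.00166), and -3.52 without calf 3 (-3.90 to -3.14, limma adjusted p = 7.63e-06), an 11.6-fold higher mean in calf 1 and calf 2. SPARC was called in each of the 15 alternative settings, with log2 fold changes of -3.87 to -2.75. Both of its transcripts were called lower in both fits, as were 9.37% of all transcripts with all libraries and 13.1% without calf 3, and SPARC-202, the longer, carried 94.1% to 96.6% of the gene value in every library.

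Markers of other testis cells that can make SPARC were read as well. A list of 5 endothelial markers summed to an FPKM of 22.3, 8.91 and 33.3 in the calves and 10.7 to 15.3 in the bulls, and 5 markers of peritubular myoid cells to 35.1, 47.2 and 14.7 and 60.3 to 69.9. A list of 6 Leydig cell markers summed to 1406, 1141 and 0.502 in the calves and 1465 to 2738 in the bulls, most of it INSL3 except in calf 3. The markers within these lists did not all go one way. Among the Leydig markers HSD3B1 had 12.7, 11.1 and 0.0352 in the calves and 6.94 to 11.8 in the bulls. Among the myoid markers DES had 14.7, 24.0 and 1.32 in the calves and 6.91 to 7.10 in the bulls, while ACTA2 had 6.68, 5.64 and 7.81 and 22.3 to 29.6. The part of these cells in the value of SPARC was not tested. The 6 other genes of the SPARC family in the table all passed the filter, and with all libraries 2 were called lower and 1 higher, whereas without calf 3 it was 3 and 3. SPARCL1, the nearest relative of SPARC, had an FPKM of 143, 74.4 and 587 in the calves and 17.4 to 19.8 in the bulls (log2 fold change -3.25, limma adjusted p = 0.0104), and without calf 3, its highest library, the fold change was -2.42. SPOCK2, a testican proteoglycan, was lower in bulls as well (-2.20, limma adjusted p = 0.00257), and SMOC2 was higher (1.58, limma adjusted p = 0.00220). The 3 further genes called without calf 3, named after their values had been seen, were FSTL1, lower (-2.28), and SMOC1 (1.48) and SPOCK1 (2.06), higher, though the sign of both turned with quantile normalization of all 6 libraries (-0.37 and -0.21). The family thus held genes that differed in both directions.

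Protease inhibitors formed a further role. CST3, the main secreted inhibitor of cysteine cathepsins, is on chromosome 13 at 42185268 to 42189284 (ENSBTAG00000000598). The FPKM of CST3 was 1569, 1532 and 345 in the calves and 249, 292 and 300.2 in the bulls. Calf 1 and calf 2 were nearly alike and far above the bulls, while calf 3 was just above the highest bull. With all libraries CST3 was not called, with a log2 fold change of -1.75 (95% interval -3.32 to -0.18, limma adjusted p = 0.0599). After calf 3 was left out, CST3 was called, lower in bulls at -2.47 (-2.78 to -2.16, limma adjusted p = 1.34e-05), a 5.53-fold higher mean in calf 1 and calf 2. CST3 was also called with each of the 3 rescalings of all 6 libraries (-2.03 to -1.53).

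Of 9 other symbols among the cystatins and cysteine cathepsins, 8 gene rows passed the filter. With all libraries 2 were called higher and 2 lower, and without calf 3 it was 1 and 5. CTSB, a cathepsin that CST3 inhibits, had an FPKM of 94.5, 93.6 and 50.3 in the calves and 37.4, 35.4 and 38.1 in the bulls (log2 fold change -1.03, limma adjusted p = 0.0208). CTSC, the cathepsin that activates serine proteases of immune cells, had 25.2, 13.5 and 8.79 and 4.61, 3.89 and 4.82 (-1.51, limma adjusted p = 0.0147). The call of CTSB was lost without any 1 of the libraries other than calf 3 (-1.05 to -0.88, adjusted p 0.0612 to 0.0752) and that of CTSC without bull 1 (-1.54, adjusted p 0.0513) or bull 2 (-1.44, adjusted p 0.0586). CST8, a cystatin known from testis and epididymis, was listed at 0 in the 3 calves and at 30.6, 27.5 and 31.4 in the bulls, and passed the filter through the bulls alone, so that it had to be higher there. The other gene called higher with all libraries, CTSH, also a cathepsin, was under the fold limit without calf 3 (1.11 with all libraries and 0.995 without) and is named after its values had been seen, like CST6 (-1.41), CTSS (-1.52) and CTSK (-1.84), which were called lower without calf 3 alone.

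SERPINA5, the protein C inhibitor, inactivates serine proteases in blood and in the male tract, among them acrosin. The row with this symbol lies on chromosome 21 at 59460078 to 59465438 (ENSBTAG00000004063). Its FPKM was 120.4, 149 and 0.864 in the calves and 75.0, 84.3 and 77.8 in the bulls. Calf 1 and calf 2 lay above all bulls, and their mean was 156-fold above calf 3, the value farthest below. SERPINA5 was not called with all libraries, with a log2 fold change of 1.304 (95% interval -2.85 to 5.46, limma adjusted p = 0.543). Without calf 3 the sign turned: it was lower in bulls at -0.76 (-1.06 to -0.45), which had a limma adjusted p of 0.00184 but was under the fold limit. In 2 settings added after the data had been seen, without calf 3, it passed that limit, with quantile normalization (-1.36) and with median-ratio scaling (-1.10).

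Which gene the symbol stands for was uncertain. In the RefSeq annotation of ARS-UCD, this row overlapped LOC338050, which has the synonym PCI, and not the gene named SERPINA5. The RefSeq gene SERPINA5 overlapped another row without a symbol, ENSBTAG00000051726 on chromosome 21 at 59287811 to 59295395. This second row had an FPKM of 70.8, 84.5 and 0.390 in the calves and 40.1, 50.1 and 41.5 in the bulls. The ratio of the second row to the first lay between 0.452 and 0.595 in all 6 libraries, so that their values went together, with calf 3 lowest in both. Serpin genes of this cluster are close relatives, and how reads that match more than 1 of them were shared is not given in the sources used here. Another gene, SERPINA3-1, spans the SERPINA5 row and had an FPKM of at most 4.39 in any library.

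**Figure D4:**
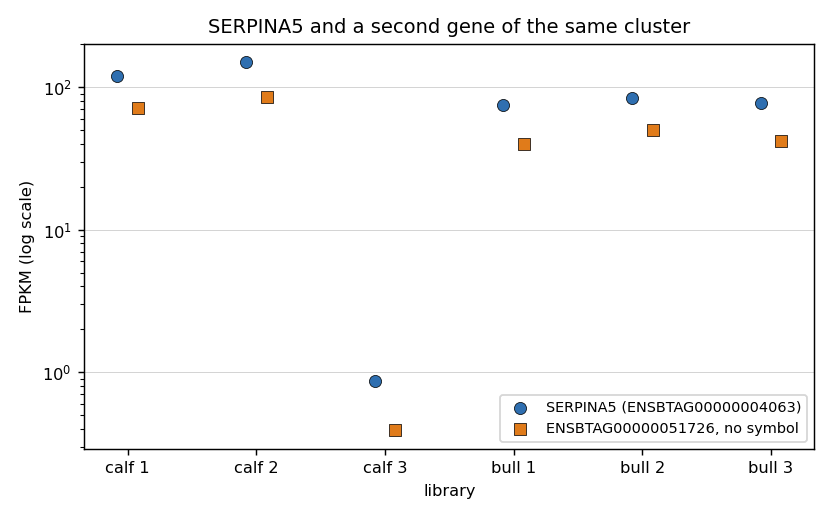
FPKM (log scale) of SERPINA5 and of the row without a symbol that overlaps the RefSeq gene SERPINA5, in each library. The second row stays at 0.452 to 0.595 of the first, and both are lowest in calf 3, at 0.864 and 0.390.

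Proteases and cofactors met by SERPINA5 numbered 8, of which 6 passed the filter. Of these, 2 were called higher in bulls in both fits. ACR, acrosin, the protease of the sperm acrosome, had an FPKM of 0, 0.0590 and 0 in the calves and 45.5, 41.1 and 42.6 in the bulls. F2, prothrombin, had 0.531, 0.536 and 0.290 in the calves and 50.5, 43.1 and 44.8 in the bulls. Both passed the filter through the bulls alone, so that they had to be higher there. SERPINA5 itself had a mean in calf 1 and calf 2 that was 1.70-fold that of the bulls. Without calf 3 the coagulation factor F10, named after its values had been seen, was called lower (-2.67, limma adjusted p = 0.000114).

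PSAP, the precursor of the 4 saposins that help lysosomal enzymes to break down glycolipids, is both secreted and sent to lysosomes. Its gene is on chromosome 28 at 27964205 to 27997628 (ENSBTAG00000021499). The FPKM of PSAP was 271, 323 and 250.1 in the calves and 146, 214 and 166 in the bulls. Calves and bulls did not overlap, and calf 3 lay close to the other calves, more so than for any other of the 8 genes. The log2 fold change of -0.69 (95% interval -1.27 to -0.11, limma adjusted p = 0.0480), and of -0.77 without calf 3 (-1.22 to -0.32, limma adjusted p = 0.00904), was under the limit of 1 in both fits, and PSAP was not called. It passed the limit with quantile normalization (-1.12) and, in a setting added after the data had been seen, with median-ratio scaling without calf 3 (-1.12). Of its 3 transcripts, PSAP-203 had an FPKM of 9.56 in calf 3, or 3.82% of the gene value, and of at most 0.00203 in the other libraries.

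All 14 genes of the lysosomal list passed the filter, and with all libraries 5 were called lower in bulls, whereas without calf 3 it was 6 lower and 1 higher. NPC2, which carries cholesterol within the lysosome, had an FPKM of 115, 122 and 34.7 in the calves and 23.2, 22.2 and 21.5 in the bulls (log2 fold change -1.78, limma adjusted p = 0.0234), and its call was lost without any 1 library other than calf 3 (-1.80 to -1.46, adjusted p 0.0661 to 0.0782). GLA, alpha-galactosidase A, was lower by -1.79 (limma adjusted p = 0.000277) and kept its call in every alternative. GM2A, the GM2 activator protein, was lower by -1.15 (limma adjusted p = 0.00282) and went under the fold limit when libraries were rescaled to a common sum (-0.97). Named after their values had been seen, SMPD1, acid sphingomyelinase, was lower in both fits (-1.54 and -1.13) but lost its call without bull 3 (-1.51, adjusted p 0.0535), and without calf 3 GALC was higher (1.12). The median log2 fold change of the 14 was -0.65 with all libraries and -0.67 without calf 3. Lysosomal genes are high in macrophages, whose 6 markers did not go one way. AIF1 had an FPKM of 19.5, 10.8 and 21.4 in the calves and 113, 94.2 and 167 in the bulls and was called higher with CD14, while CSF1R was called lower, at 10.7, 5.51 and 30.7 against 2.62 to 3.25. The part of macrophages in these values was not tested.

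Receptors of prosaposin, clusterin and their relatives numbered 10, of which 7 passed the filter. With all libraries 2 were called lower, and without calf 3 it was 3 lower and 2 higher, the added ones being IGF2R (-1.53), SORT1 (1.62) and VLDLR (1.68), named after their values had been seen. LRP1, an endocytic receptor with many ligands, had an FPKM of 34.8, 34.4 and 46.3 in the calves and 8.50, 10.3 and 8.59 in the bulls (log2 fold change -1.95, limma adjusted p = 0.000255). GPR37, a reported receptor of prosaposin that is abundant in oligodendrocytes, had 17.8, 23.0 and 94.4 and 4.04, 6.11 and 5.44 (-2.51, limma adjusted p = 0.0154), highest in calf 3. Its call was lost without bull 1 (-2.37, adjusted p 0.0626) or bull 3 (-2.55, adjusted p 0.0532) and with libraries rescaled to a common sum (-2.33, adjusted p 0.0631). Of 10 other proteins secreted by Sertoli cells, 7 passed the filter, and 1, the retinol carrier RBP4, was called lower with all libraries, at an FPKM of 15.1, 9.72 and 8.75 in the calves and 1.63, 2.23 and 2.05 in the bulls (-2.01, limma adjusted p = 0.000803). Without calf 3 it was 3 lower and 2 higher, with A2M (-1.94) and TIMP2 (-2.01) added below and CP (1.15) and GAS6 (1.49) above, all 4 named after their values had been seen. The 9 lists around the members together gave 61 genes tested, of which 6 were called higher and 13 lower with all libraries, and 13 and 23 without calf 3, read beside 35.7% higher and 9.61% lower over all genes with all libraries and 37.9% and 13.6% without calf 3. Of the 6 called higher, 4 (HPGDS, ACR, F2 and CST8) passed the filter through the bulls alone.

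The secreted proteins were also set against the 12 Sertoli cell markers. The mean log2(FPKM + 1) of the markers was taken from the log2(FPKM + 1) of each gene in the same library. The marker mean was 4.61, 4.80 and 1.24 in the calves and 3.102, 3.12 and 3.14 in the bulls. In 2 calves the markers thus lay above the bulls and in calf 3 below them. With all libraries the marker mean differed by -0.43 on the log2 scale (exact permutation p = 1). Without calf 3 it differed by -1.59 (exact permutation p = 0.1, two-sided, the smallest that 3 against 2 allow). Relative to the markers and without calf 3, SPARC was still lower in bulls (-1.94), as were CST3 (-0.88) and CLU (-0.55), each with an exact permutation p of 0.1. PTGDS differed by -0.46, with bull 2 at 4.39 and bull 3 at 4.32 just below calf 1 at 4.397 (exact permutation p = 0.4).

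The other genes lay on the opposite side on this relative scale. PSAP was higher in bulls by 0.82, SERPINA5 by 0.83, TF by 2.40 and SHBG by 2.61, each with an exact permutation p of 0.1 and no overlap between calf 1, calf 2 and the bulls. For SHBG the antisense transcripts are part of this value. These signs depend on the reference, whose mean was itself lower in bulls (-1.59). Among its markers, AMH differed by -6.66 and INHA by -3.27. Without the reference and without calf 3, PSAP (-0.77) and SERPINA5 (-0.76) were lower in bulls, and TF (0.82) was not called. Output per Sertoli cell was not tested. With calf 3 in the comparison, in which the marker mean was low, the relative differences were -2.63 for SPARC, -1.32 for CST3, -1.24 for CLU, -1.17 for PTGDS, 1.73 for SERPINA5, 1.65 for SHBG, -0.26 for PSAP and -0.01 for TF. With SOX9 alone as the reference and all libraries, PSAP (0.19) and TF (0.45) turned in sign, and the other 6 kept theirs. The SOX9 reference was not used without calf 3. In calf 3 SOX9 had an FPKM of 13.7, while WT1, GATA4, FSHR and NR5A1 were listed at 0. This setting therefore cannot show whether the signs hold with another Sertoli reference. These 8 comparisons were each too small in number of animals to reach a p below 0.05.

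**Figure D5:**
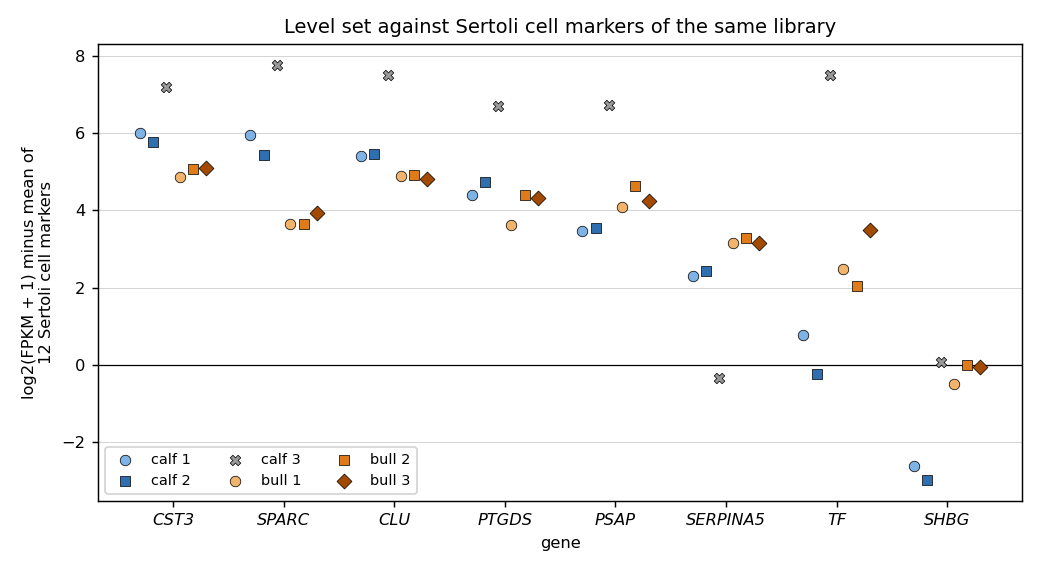
Log2(FPKM + 1) of each gene minus the mean of the 12 Sertoli cell markers in the same library (y axis), with 1 symbol per animal. Leaving calf 3 (grey crosses) aside, SPARC, CST3, CLU and, by a narrow margin, PTGDS lie lower in bulls than in calves, and PSAP, SERPINA5, TF and SHBG higher.

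The genes did not share 1 pattern over the 6 libraries. The 6 pairs of CLU, PTGDS, SPARC and CST3 had Pearson's r of 0.920 to 0.977 on log2(FPKM + 1), and 0.946 to 0.997 over the 5 libraries without calf 3. PSAP was near them, with r of 0.817 (CST3) to 0.933 (PTGDS) over 6 libraries and 0.871 (SPARC) to 0.964 (PTGDS) without calf 3. SERPINA5 had r of -0.02 (SPARC) to 0.374 (CST3) with these 4 over 6 libraries, but 0.938 (SPARC) to 0.980 (PTGDS) without calf 3. TF and SERPINA5 ran opposite to each other, with an r of -0.93 over 6 libraries and -0.72 without calf 3. Among genes with a symbol and a mean FPKM of at least 10, those most like each member over the 6 libraries were listed as a description. They were AMBRA1, ATP8B2 and FMR1 for CLU (r of 0.998 to 0.999), RALA and CXHXorf56 for PTGDS (0.997 to 0.998), HSPE1, GALNT2 and NRK for SPARC (0.998 to 0.999), and MTA2, RALB and S100A10 for CST3 (0.998 to 0.999). For TF they were ATP13A3, TRA2A and PHYH (0.984 to 0.994), for SERPINA5 TBC1D8, WDHD1 and TRIOBP (0.999 for each), for SHBG GSTA5, DESI2 and CNTLN (0.989 to 0.998), and for PSAP TYRO3, MSH3 and DHX40 (0.979 to 0.988). The gene value of SHBG used for r includes its antisense transcripts. With 6 points in 2 groups and 1 library apart, high values of r are common, and no p is given.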

How the data were processed

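The deposited tables hold FPKM values per gene and per transcript, with 1 column for each animal. Per the study's methods, the authors filtered out poor reads and, with Bowtie2, ribosomal RNA, before mapping by TopHat2 and transcript assembly by StringTie. The tool that made the gene FPKM values is not given in the sources used here. The Methods name an older assembly than the one the positions in the tables follow, ARS-UCD.

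Values were transformed to log2(FPKM + 1), features with 3 or more of the 6 libraries at an FPKM of 1 or higher were kept, and limma 3.58.1 (R 4.3.3) was fitted with an empirical Bayes trend and Benjamini-Hochberg adjustment over 18115 genes or 23212 transcripts. In simulated data with a log2 change of 2, 92.5% of 200 changed genes (of 18115) and 74.5% of 200 changed transcripts (of 23212) were recovered. The spread of each simulated feature was taken with calf 3 left out. These shares therefore do not give the recovery of the fit with all 6 libraries, which holds the added spread of calf 3. Smaller changes were not simulated. Exact permutation tests were two-sided. Alternatives were another pseudocount, no filter, 3 rescalings, library weights, a replicate block and leaving out each library. Named from each list were up to 4 genes with the largest fold change among those called with and without calf 3, and for markers the highest.

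The members, lists and tests were chosen with earlier results of these data known. Symbols missing from the tables (TIMP1, SPOCK3, CST11, CLIC6, LCN5, LCN8) were not analysed here, and a few genes that the rule for names would give are not reported here. Nothing in the labels marks technical replicates, and each library is 1 animal. Circular and linear RNA are not separated in FPKM.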

Additional observations from a re-analysis of the deposited data

How the results depend on the processing

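With no counts, the precision of a value rests on 3 animals per group, and the direction of calls depends on scaling: 78.8% of called genes were higher in bulls as fitted, 86.6% with a common sum, 70.2% with median-ratio scaling and 45.8% with quantile normalization. The median log2 fold change of all genes was 0.43, 0.61, 0.20 and -0.26 in these 4 settings. SPARC, CLU, PTGDS, CST3 and PSAP stayed lower in bulls and SHBG higher in each of 15 alternatives.

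Of the 8 members 4 were called, and 2 to 5 when 1 library was left out: 5 without calf 3 and 2 (SPARC and SHBG) without each of the other libraries, while 7318 to 9325 of the 18115 genes were called in these fits. Of the 61 listed genes tested 19 were called, 29 with quantile normalization, 37 with array weights and 13 to 36 when 1 library was left out, with 36 without calf 3. Of all 18115 genes 8215 were called, 8365 with quantile normalization, 9337 with array weights and 9325 without calf 3. In settings added after the data had been seen, 38 listed genes were called with quantile normalization without calf 3 and 38 with median-ratio scaling without calf 3. Over all genes these settings gave 9337 and 9564. The sign turned for TF with array weights (0.67), without calf 3 (0.82), and without calf 3 with quantile normalization (0.03) or median-ratio scaling (0.48). For SERPINA5 the same 4 settings gave -0.62, -0.76, -1.36 and -1.10. Over the fits that left out 1 library, TF lay between -1.26 and 0.82 and SERPINA5 between -0.76 and 2.41. SHBG-201 turned with quantile normalization (-0.43) and without calf 3 (-0.15), and TF-201 without calf 3 (0.79). Among listed genes called without calf 3 alone, the sign turned with calf 3 in the fit for FSHR with a pseudocount of 0.1 (0.65) and a common sum (0.038), SMOC1 with median-ratio scaling (-0.0024) and quantile normalization (-0.37), SPOCK1 with quantile normalization (-0.21) and CST6 with a common sum (0.13). Leaving out 1 library gave -2.06 to 0.58 for FSHR, -0.39 to 1.48 for SMOC1, -0.44 to 2.06 for SPOCK1, -1.41 to 0.56 for CST6 and -2.01 to 0.058 for TIMP2, with calf 3 the library left out at the end that was called. Beyond the share of calf 3 in these values, the cause was not tested. Among the values of single genes and transcripts in the alternatives, 555 kept their sign and side of the threshold, 54 lost and 95 gained a call, and 26 turned.

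Deviations from the group mean had r over genes of 0.0277, 0.0246 and 0.0341 for libraries with the same replicate number. For libraries with different numbers r lay between -0.0487 and 0.0221. The same-number values were the highest, but all were near 0, so the number was not taken as a pairing. With a replicate block 8128 genes were called against 8215, 10087 transcripts against 10255, and 4 members and 19 listed genes, the same numbers as without it, though FTH1 lost its call (adjusted p 0.0580) and F10 gained one (adjusted p 0.0371). The transcript PTGDS-202 also lost its call (adjusted p 0.0517).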

Other observations

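Antisense transcripts were listed at another member too. TF-AS1, assembled from the reads and placed on chromosome 1 at 135572697 to 135598362, had an FPKM of 0.124, 0.0899 and 0.651 in the calves and 0.715, 1.15 and 1.61 in the bulls. Calves and bulls did not overlap, but the transcript did not pass the filter on low values and was not tested. It made up at most 0.392% of the TF value in each calf and 1.51%, 3.25% and 1.65% in the bulls, far less than the antisense share of SHBG. The gene closest over the 6 libraries to the gene value of SHBG, GSTA5, a glutathione transferase, had an FPKM of 3.22, 2.66 and 0 in the calves and 21.7, 90.1 and 84.3 in the bulls, so that bull 1 was the lowest bull for both. That value includes the antisense transcripts. SHBG-201 alone was highest in bull 1, at 2.64 against 2.39 and 2.21.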
